A study of Homo sapiens with 6 samples.

Results

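The genes of cholesterol and fatty acid synthesis were examined in RNA-seq of SW480 cells, an established line from a human colorectal adenocarcinoma. The members were chosen by name: 18 enzymes of sterol synthesis, 8 genes of sterol control and transport, and 13 genes of fatty acid synthesis and activation, 39 in all. The count tables held 63677 gene identifiers, and 38 of the 39 members were found among them by symbol. ACACA, an acetyl-CoA carboxylase, was not analysed here, and NPC1L1, a sterol uptake protein of the gut, was counted at only 1 to 5 reads per library and was not tested. The remaining 37 members were among the 14286 genes tested.

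SW480 cells carried a lentiviral, doxycycline-inducible vector encoding HA-tagged POU5F1B, a retrocopy of the pluripotency factor gene OCT4, or green fluorescent protein (GFP) as a control. The cells were puromycin-selected pools and not single clones, and both groups were kept in 1 µg/mL doxycycline for 72 h, in medium with fetal calf serum. There were 3 GFP libraries and 3 POU5F1B libraries, numbered 1 to 3 in each group. The labels do not say whether these came from separate cultures, so p-values measure only the spread between these samples. The vector supplies the POU5F1B reading frame from an inducible promoter, so its level is not that of the endogenous locus.

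Total counts per library lay between 10767947 and 12787637, so that 3 counts, taken as the floor of detection, correspond to 0.228 to 0.278 CPM, the counts of a gene per 1000000 counts of the TMM-scaled library. POU5F1B was counted at 6, 5 and 1 reads in GFP replicates 1, 2 and 3 and at 15027, 11393 and 1458 reads in POU5F1B replicates 1, 2 and 3, so that the POU5F1B replicate 3 library held the fewest transgene reads of its group. GFP replicate 3 stood apart from the other libraries: it had the highest share of mitochondrial counts, 8.62% against 6.95% to 7.49% in the other 5 libraries, and a quality weight of 0.111 (limma) against 0.575 to 2.79. For this reason results are given for all 6 libraries and for replicates 1 and 2 only. All 5 epithelial markers listed were detected, KRT8 and KRT18 highest, and of 4 colon markers VIL1 and CDX2 averaged 72.9 and 24.7 CPM over the 6 libraries whereas CDX1 and LGALS4 averaged 0.0554 and 0.382 CPM. The colon list summed to 34.1 to 243 CPM in GFP and 53 to 148 CPM in POU5F1B libraries. The fibroblast list summed to 20.1 to 143 CPM in GFP and 5.74 to 10 CPM in POU5F1B libraries, nearly all of it COL1A1, with DCN at 0.0572 CPM on average, and the part of this difference in any result below was not tested. Leukocyte, hepatocyte and adipocyte markers summed to at most 4.73 CPM in any library.

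Cells make cholesterol from acetyl-CoA through mevalonate, farnesyl diphosphate, squalene and lanosterol. The endoplasmic reticulum protein SCAP escorts the membrane-bound factors SREBP-1 and SREBP-2, encoded by SREBF1 and SREBF2, to the Golgi when sterols are scarce, where they are cut and released to the nucleus. INSIG1 holds SCAP back when sterols are abundant. SREBP-2 mainly drives the sterol genes and SREBP-1 the fatty acid genes, in both cases together with NF-Y, which binds the letters CCAAT. Colorectal tumours and lines draw on both routes for membranes and for lipid anchors of signalling proteins.

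Promoters of 4 members are shown because they carry these letters in different arrangements, and they were picked with the fold changes known. With all 6 libraries the log2 fold changes of POU5F1B against GFP were 0.52 for MSMO1, -0.65 for STARD4, -0.04 for SREBF2 and 0.59 for SCD. MSMO1 and SREBF2 changed sign between the replicate numbers, and a link between the letters and these values was not tested. Each run is the 250 bases before a transcription start from RefSeq, read 5′ to 3′ on the gene's strand (build GRCh38.p14), and capitals mark CCAAT, or ATTGG where it lies on the other strand, and the sterol element letters CACNCCAC or their reverse complement.
MSMO1, chr4:165327419-165327668, plus strand: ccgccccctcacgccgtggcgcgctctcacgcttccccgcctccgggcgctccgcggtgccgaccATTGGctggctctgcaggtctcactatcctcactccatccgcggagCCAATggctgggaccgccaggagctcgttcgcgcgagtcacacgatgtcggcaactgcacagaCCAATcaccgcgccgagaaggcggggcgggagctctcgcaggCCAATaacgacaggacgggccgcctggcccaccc
STARD4, chr5:111512536-111512785, minus strand: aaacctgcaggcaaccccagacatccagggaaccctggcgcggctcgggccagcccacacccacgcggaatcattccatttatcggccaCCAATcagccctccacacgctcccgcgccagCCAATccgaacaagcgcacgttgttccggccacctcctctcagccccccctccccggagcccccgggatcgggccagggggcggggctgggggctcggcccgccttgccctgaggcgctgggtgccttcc
SREBF2, chr22:41832855-41833104, plus strand: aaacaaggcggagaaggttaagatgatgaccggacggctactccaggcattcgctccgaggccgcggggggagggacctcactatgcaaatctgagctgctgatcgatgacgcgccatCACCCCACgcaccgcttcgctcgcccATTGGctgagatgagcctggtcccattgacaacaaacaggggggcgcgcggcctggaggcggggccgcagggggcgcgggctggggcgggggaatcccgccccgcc
SCD, chr10:100346983-100347232, plus strand: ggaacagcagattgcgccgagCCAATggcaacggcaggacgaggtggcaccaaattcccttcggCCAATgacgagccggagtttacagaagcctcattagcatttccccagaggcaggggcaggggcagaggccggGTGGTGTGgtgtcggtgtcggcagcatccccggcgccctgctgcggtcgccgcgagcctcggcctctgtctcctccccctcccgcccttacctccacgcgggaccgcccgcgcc

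MSMO1 held CCAAT at 4 places, STARD4 and SCD at 2 places each, and SREBF2 at 1 place, from position -106 relative to the start, with its CACCCCAC from position -132. Windows of 300 bases, from 250 before to 50 after a start, were searched on both strands for CCAAT, CACNCCAC and the E-box CACGTG. RefSeq gave a window for 35 members, and none was available for ACAT2, FDFT1, SQLE and FASN. The 35 include ACACA and NPC1L1, which have no fold change here. No match of one motif overlapped a match of a different motif in these windows. In IDI1 and NSDHL, CCAAT matches on opposite strands overlapped each other, in IDI1 from positions -132 and -129 and in NSDHL from -113 and -110. CCAAT was found in 26 of the 35 members (74.3%) and in 13 of 15 sterol synthesis enzymes with a window (86.7%), against 39.7% of 27305 genes. At 2 or more places it was found in 10 of the 15 enzymes (66.7%), against 12.9% of all genes. CACNCCAC was found in 7 of 35 members (20%), against 7.05% of all genes, and CACGTG in 5 of 35 (14.3%), against 8.77%. Some genes have several windows, which a count per gene favours: of single windows, 60% of the 50 member windows and 34.6% of all 35116 held CCAAT. The 27305 genes were not limited to the 14286 genes tested for expression, and a share among those was not computed. These matches describe the letters and not binding.

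The comparison of POU5F1B with GFP asked whether sterol and fatty acid genes differed after POU5F1B was induced. With all 6 libraries no member passed the threshold of an adjusted p under 0.05 with a fold above 2, nor did any of the 14286 genes tested (0%; limma voom). By the same limits 0 members passed in edgeR and 0 in DESeq2, where 1.62% of all tested genes did. At an unadjusted p under 0.05, 4 members were higher in POU5F1B, EBP, SQLE, ME1 and SCD (10.8% of 37, against 6.07% of all tested genes), and 2 were lower, FDFT1 and STARD4 (5.41%, against 5.82%). These 6 members became 16 without GFP replicate 3, 3 without GFP replicate 2, 2 without POU5F1B replicate 1 and 3 without POU5F1B replicate 2. The share of all tested genes moved with them, from 11.9% to 29.4%, 6.95%, 5.19% and 6.75%. The groups did not overlap for 8 members that were higher in POU5F1B (21.6%, against 10.2% of all tested genes), EBP, FDPS, LSS, NSDHL, NPC1, SOAT1, SCD and ME1, and for the same 2 that were lower (5.41%, against 9.21%). Adjusted p-values of the members ran from 0.209 for STARD4 to 0.986. In these bulk libraries fewer cells expressing a gene and less RNA per cell cannot be told apart.

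With replicates 1 and 2 only, 4 libraries in all, 16 members were higher in POU5F1B at an adjusted p under 0.05 (43.2% of 37, against 14.1% of all tested genes), 11 of them sterol synthesis enzymes and 5 fatty acid genes. Another 4 members were lower (10.8%, against 15.5% of all tested genes): FDFT1, STARD4, SCAP and FADS2. Only MSMO1 also passed the fold of 2 (2.7% of the members, against 8.36% of all tested genes). Of the 16 that were higher, 6 were also higher in POU5F1B replicate 3 than in GFP replicate 3 (37.5%, against 49.6% of the 2021 genes that were higher among all tested), and of the 4 that were lower, FDFT1 and STARD4 were also lower there (50%, against 45.9% of 2217).

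**Figure D1:**
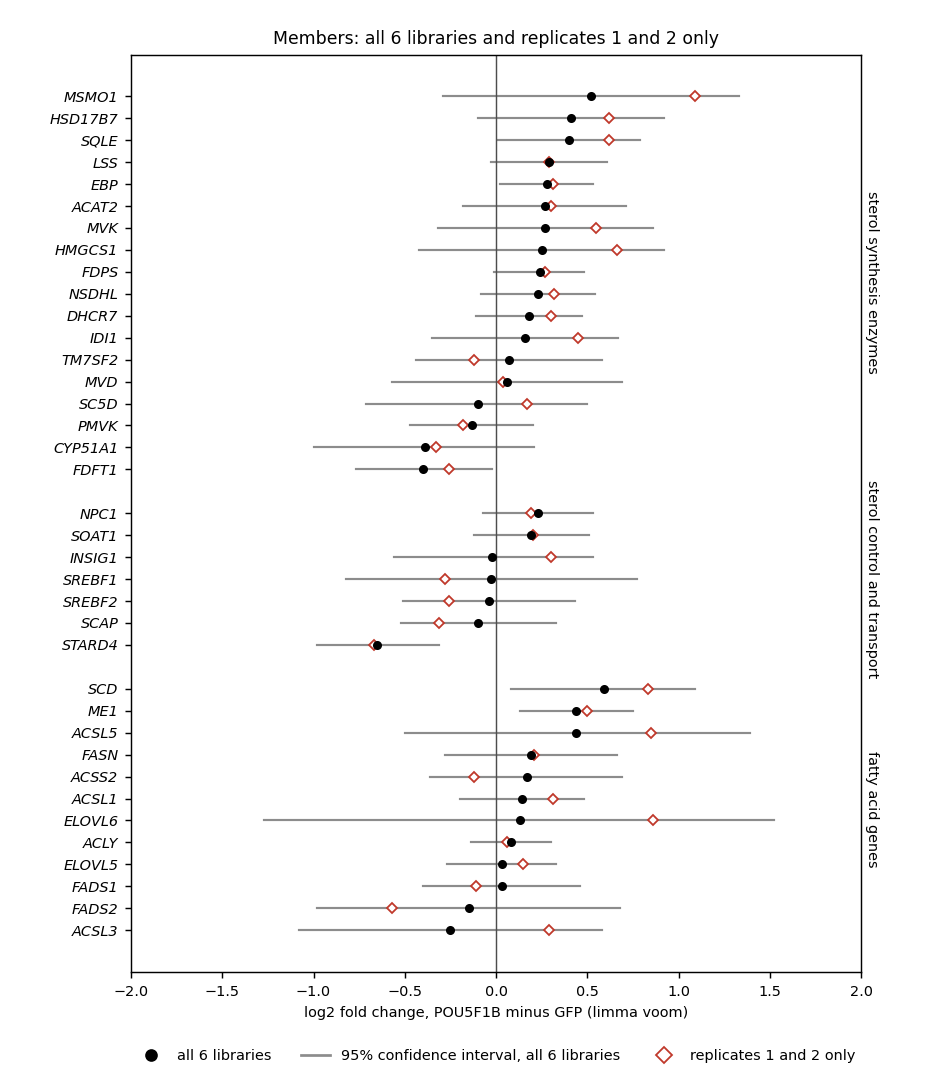
Log2 fold change (POU5F1B minus GFP, limma voom) of the 37 tested members, grouped by role; filled circles with 95% confidence intervals are from all 6 libraries and open diamonds from replicates 1 and 2 only. The diamonds of MSMO1, HMGCS1, ELOVL6 and ACSL5 lie well to the right of their circles, whereas those of STARD4, LSS, EBP and FDPS nearly coincide with them.

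As a group, the sterol synthesis enzymes were mostly higher in POU5F1B, 14 of 18 of them, and the median of their log2 fold changes was 0.23, beside -0.02 over all tested genes, of which 46.9% were higher. The median was 0.30 with replicates 1 and 2 only. Differences of the log2 CPM within the libraries of number 1, 2 and 3 had medians of 0.34, 0.30 and -0.06 over these enzymes, so that the direction was carried by the first and second numbers. On the TPM scale, which corrects for transcript length and so allows genes to be compared and added, the 18 enzymes summed to 1097, 1065 and 1086 TPM in GFP replicates 1, 2 and 3 and to 1280, 1259 and 1112 TPM in POU5F1B replicates 1, 2 and 3. Every POU5F1B library lay above every GFP library, replicate 3 by little: the mean was 1082 ± 15.9 TPM in GFP and 1217 ± 91.8 TPM in POU5F1B (SD, n = 3). Summed as CPM the groups overlapped, at 998, 959 and 1153 CPM in GFP and 1214, 1185 and 1032 CPM in POU5F1B. In CPM long transcripts count for more, and the libraries are scaled by TMM, which the TPM sums are not. The TMM factor was 0.932 for GFP replicate 3 and 1.028 for POU5F1B replicate 3. Scaling by these factors would raise the GFP replicate 3 sum and lower that of POU5F1B replicate 3. Sums of TPM scaled by TMM were not computed, and whether length or scaling changed the order of the replicate 3 libraries was not tested.

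**Figure D2:**
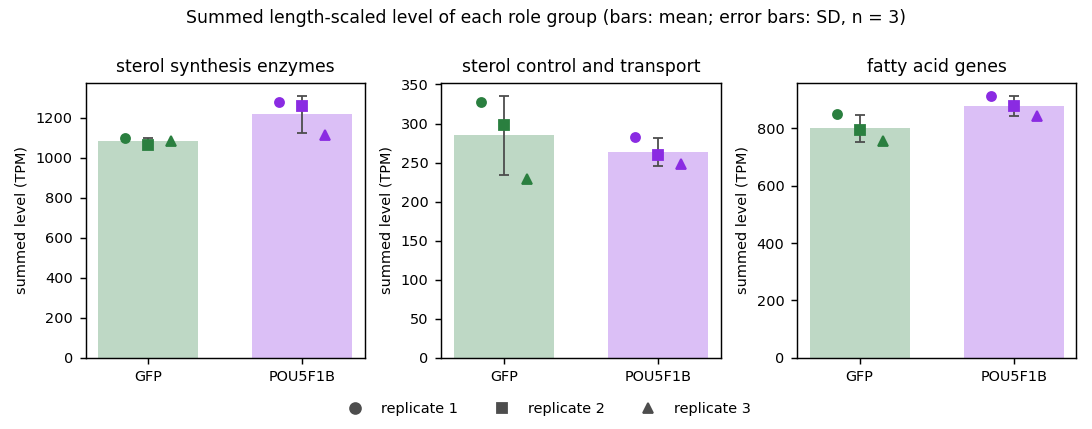
Summed level in TPM of the counted members of each role group in each library; bars are the mean and error bars the SD of 3 libraries. Sterol synthesis enzymes ran from 1065 to 1097 TPM in GFP and from 1112 to 1280 TPM in POU5F1B, while the groups overlapped for sterol control and transport and for fatty acid genes. TPM here is not scaled by TMM, and summed as TMM-scaled CPM the sterol synthesis enzymes overlapped too.

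The enzymes of the early, mevalonate part of the route had log2 fold changes of -0.13 to 0.27 with all 6 libraries, beside a median of 0.23 over the 18 enzymes. HMGCS1, the cytosolic HMG-CoA synthase (GRCh37 chr5:43287572-43313614, minus strand), was at 40.4, 43.3 and 83.3 CPM in GFP replicates 1, 2 and 3 and at 67.8, 66 and 54.3 CPM in POU5F1B. Replicates 1 and 2 were higher in POU5F1B and replicate 3 lower, and GFP replicate 3 was the highest of the 6 libraries. Its log2 fold change was 0.25 (95% CI -0.42 to 0.92) with all libraries and 0.66 (0.43 to 0.89) with replicates 1 and 2. ACAT2, the cytosolic acetoacetyl-CoA thiolase, MVK, mevalonate kinase, and IDI1, isopentenyl diphosphate isomerase, had log2 fold changes of 0.27, 0.27 and 0.16 with all libraries and of 0.30, 0.55 and 0.45 with replicates 1 and 2, past an adjusted p of 0.05 in the latter. MVK and IDI1 were lower in POU5F1B replicate 3 than in GFP replicate 3, while ACAT2 was higher. ACAT2 shares 454 exonic bases with TCP1, and MVK 225 with MMAB, on the opposite strand, so that without a stated strand setting some of their reads may be those of the neighbour. PMVK, phosphomevalonate kinase, and MVD, mevalonate diphosphate decarboxylase, had log2 fold changes of -0.13 and 0.06.

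FDPS, farnesyl diphosphate synthase, the branch point toward sterols, ubiquinone and prenylated proteins, was the most abundant enzyme of the group at a mean of 244 TPM, above 95.9% of tested genes. It was at 158, 153 and 150 CPM in GFP and at 191, 186 and 168 CPM in POU5F1B. All 3 POU5F1B libraries were higher than all 3 GFP libraries, with means of 154 ± 3.97 and 182 ± 12.5 CPM (SD, n = 3). The log2 fold change was 0.24 (95% CI -0.01 to 0.48, adjusted p = 0.427).

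At the squalene steps the enzymes went in opposite directions. FDFT1, squalene synthase, the first enzyme committed to sterols, was at 145, 139 and 198 CPM in GFP and at 120, 120 and 121 CPM in POU5F1B. It was lower in every POU5F1B library, by a log2 fold change of -0.40 (95% CI -0.77 to -0.02, adjusted p = 0.393), with the highest value in GFP replicate 3 and -0.26 with replicates 1 and 2. SQLE, squalene epoxidase, a rate-limiting step after it, was at 77.6, 69.6 and 92 CPM in GFP and at 115, 112 and 87.8 CPM in POU5F1B. Here GFP replicate 3 exceeded POU5F1B replicate 3 and the groups overlapped, with a log2 fold change of 0.40 (95% CI 0.01 to 0.79, adjusted p = 0.411) and 0.62 with replicates 1 and 2. LSS, lanosterol synthase, had a log2 fold change of 0.29 in both fits and did not overlap between groups, at 52.8 to 59.8 CPM in GFP and 60.2 to 73.8 CPM in POU5F1B.

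Among the enzymes that turn lanosterol into cholesterol, MSMO1 (GRCh37 chr4:166248819-166264316, plus strand), a methyl sterol oxidase singled out after its values were seen, differed most. It was at 28.6, 32.8 and 58.1 CPM in GFP and at 67.4, 64.1 and 36.7 CPM in POU5F1B. In replicates 1 and 2 the POU5F1B libraries were more than 2-fold above GFP on average, whereas in replicate 3 POU5F1B was below GFP. With replicates 1 and 2 the fold was 2.12, a log2 fold change of 1.09 (95% CI 0.83 to 1.34, adjusted p = 3e-05), and with all libraries 0.52 (-0.29 to 1.33, adjusted p = 0.587), where the adjusted p over all alternatives tried ran from 3e-05 to 0.95.

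EBP, the sterol isomerase (GRCh37 chrX:48380187-48387104, plus strand), differed less but in every library. It was at 73.4, 69.7 and 75.5 CPM in GFP and at 86, 93.6 and 85.4 CPM in POU5F1B, without overlap, a log2 fold change of 0.28 (95% CI 0.02 to 0.53, adjusted p = 0.387). NSDHL, a sterol dehydrogenase, HSD17B7, the ketosterol reductase, and DHCR7, which makes cholesterol in the last step, had log2 fold changes of 0.23, 0.41 and 0.18, and of 0.32, 0.62 and 0.30 with replicates 1 and 2. HSD17B7 has a near copy, HSD17B7P2, identical over 98.4% of 1033 bases, and was counted at only 82 to 134 reads, so its value is uncertain. CYP51A1, lanosterol demethylase, was the least abundant enzyme at 4.2 TPM, counted at 48 to 106 reads. Its log2 fold change of -0.39 (adjusted p = 0.582) is likewise uncertain, since it has pseudogene copies and overlaps AKAP9 on the opposite strand. TM7SF2, a sterol reductase, and SC5D, a sterol desaturase, had log2 fold changes of 0.07 and -0.10 with all libraries, and of -0.12 and 0.17 with replicates 1 and 2, so that both turned sign.

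**Figure D3:**
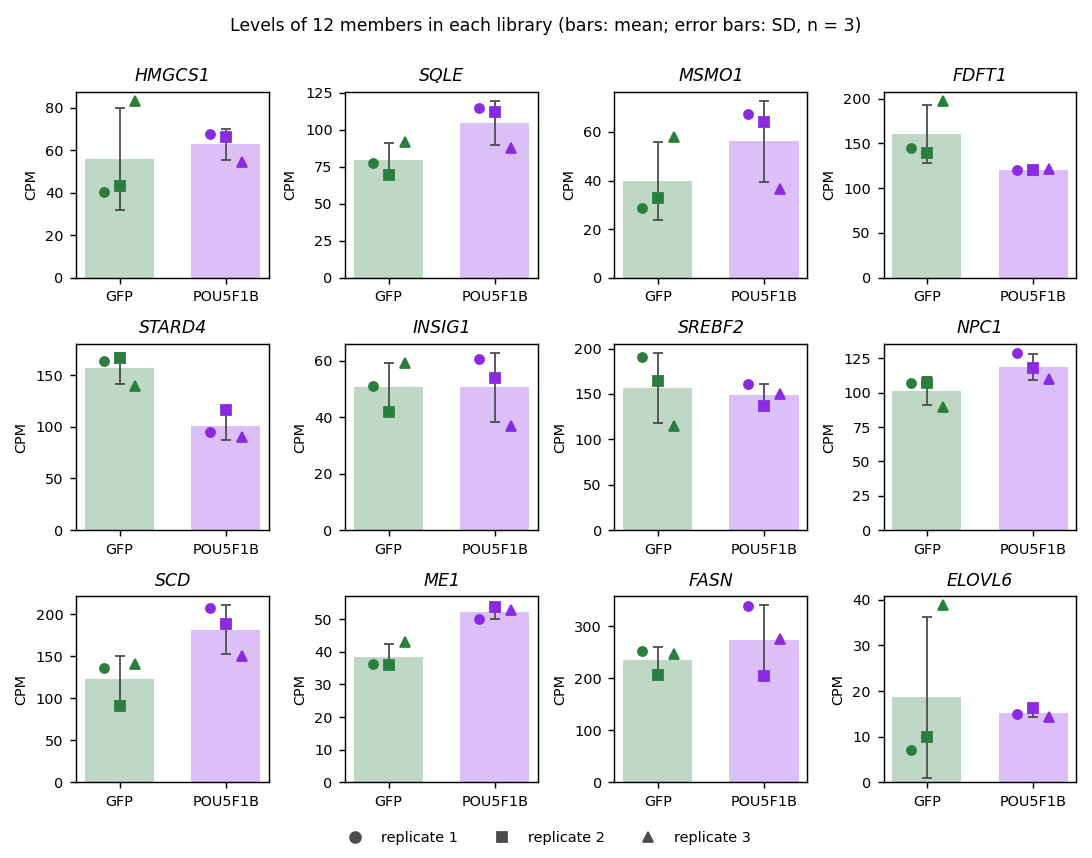
CPM of 12 members in each library (circle, square and triangle for replicates 1, 2 and 3); bars are means and error bars SDs of 3 libraries. GFP replicate 3 lies above the other GFP libraries for HMGCS1, MSMO1, FDFT1 and ELOVL6 and below them for SREBF2, STARD4 and NPC1, and the groups do not overlap for FDFT1, STARD4, NPC1, SCD and ME1.

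The genes of sterol control and transport had no common direction, and the median on the log2 scale was -0.03. Of 7 tested members 2 were higher in POU5F1B (28.6%, against 46.9% of all tested genes). The median of the 7 was -0.26 with replicates 1 and 2 only, and differences within numbers 1, 2 and 3 had medians of -0.24, -0.21 and 0.30. They summed to 285 ± 50.2 TPM in GFP and 264 ± 17.6 TPM in POU5F1B (SD, n = 3), and the groups overlapped.

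STARD4, a soluble carrier that moves cholesterol between membranes (GRCh37 chr5:110831731-110848288, minus strand), was the member with the smallest p and was lower in POU5F1B. It was at 164, 166 and 139 CPM in GFP and at 95.2, 116 and 90.1 CPM in POU5F1B. Every POU5F1B library was below every GFP library, and each numbered pair agreed in direction, with log2 differences of -0.78, -0.52 and -0.62. Its log2 fold change was -0.65 (95% CI -0.98 to -0.31), a fold of 0.639, with an adjusted p of 0.209 in limma voom, 0.2 in edgeR and 0.0216 in DESeq2, and between 0.000313 and 0.927 over all alternatives tried. With replicates 1 and 2 it was -0.67. The promoters of STARD4 and MSMO1 printed above both hold CCAAT, as do 26 of the 35 members with a window (74.3%). STARD4 and MSMO1 lay in opposite directions in replicates 1 and 2, and a link with these letters was not tested.

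NPC1, which exports cholesterol from lysosomes, was at 107, 107 and 89.6 CPM in GFP and at 129, 118 and 110 CPM in POU5F1B. SOAT1, which esterifies cholesterol for storage, was at 34.7, 32.8 and 32.2 CPM in GFP and at 37.2, 41.5 and 35.7 CPM in POU5F1B. Both were higher in all 3 POU5F1B libraries, with log2 fold changes of 0.23 (95% CI -0.07 to 0.53) and 0.19 (-0.12 to 0.51), and adjusted p-values of 0.512 and 0.6. NPC1 shares 619 exonic bases with RMC1 on the opposite strand.

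The regulators themselves overlapped between groups. SREBF2 was at 191, 164 and 115 CPM in GFP and at 161, 137 and 150 CPM in POU5F1B. SREBF1 was at 66.5, 37.2 and 28.5 CPM in GFP and at 51.3, 32 and 39.7 CPM in POU5F1B, and SCAP at 112, 98.9 and 72.4 CPM in GFP and at 91.1, 80.7 and 89.4 CPM in POU5F1B. These 3 genes had the same layout: each was lower in POU5F1B for numbers 1 and 2 and higher for number 3, and GFP replicate 3 was their lowest library. Their log2 fold changes were -0.04, -0.03 and -0.10 with all libraries and -0.26, -0.28 and -0.31 with replicates 1 and 2, where SCAP was past an adjusted p of 0.05. SREBF1 shares 556 exonic bases with RAI1 on the opposite strand. INSIG1, itself an SREBP target, was at 51.2, 41.8 and 59.1 CPM in GFP and at 60.8, 53.9 and 37 CPM in POU5F1B. Its layout was that of MSMO1 and HMGCS1 and not that of SREBF2, higher in POU5F1B for numbers 1 and 2 and lower for number 3. A turn at number 3 was common among all tested genes. Of the 2021 that were higher with replicates 1 and 2 at an adjusted p under 0.05, 49.6% were also higher in number 3. Of the 2217 that were lower, 45.9% were also lower there. The log2 fold change of INSIG1 was -0.02 (95% CI -0.56 to 0.53) with all libraries. With replicates 1 and 2 it was 0.30 (0.03 to 0.58), not past an adjusted p of 0.05 (limma voom, adjusted p = 0.0873).

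**Figure D4:**
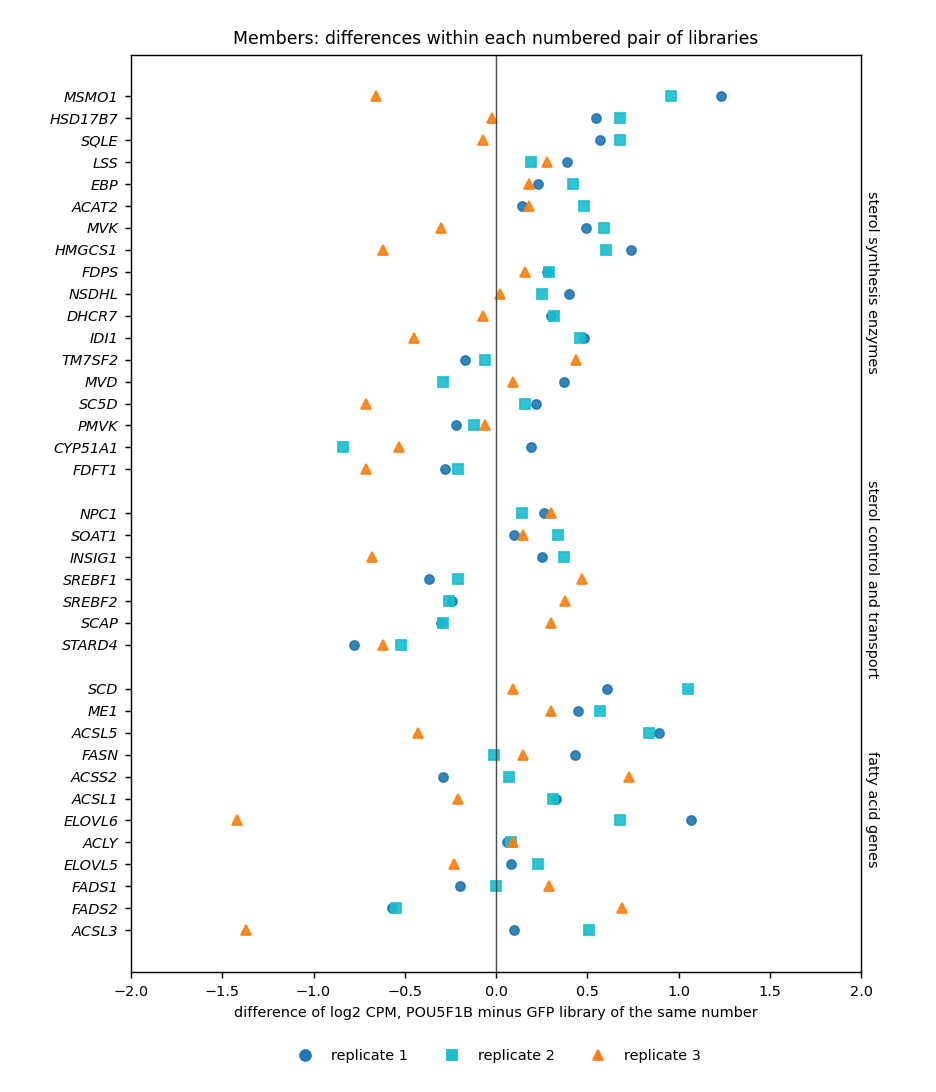
Difference of log2 CPM between the POU5F1B and GFP library of each replicate number for the 37 tested members. Number 3 (triangles) lies to the left of 0 for MSMO1, HMGCS1, INSIG1 and ELOVL6, where numbers 1 and 2 lie to the right, and all 3 numbers lie to the left for STARD4 and FDFT1 and to the right for FDPS, LSS, EBP, SCD and ME1.

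Of the fatty acid genes, 10 of 12 tested were higher in POU5F1B (83.3%, against 46.9% of all tested genes). In all 3 replicate numbers 3 of the 12 were higher (25%, against 19% of all tested genes). The median difference of the fatty acid genes was 0.13 on the log2 scale, and 0.25 with replicates 1 and 2 only. Differences within numbers 1, 2 and 3 had medians of 0.22, 0.27 and 0.09. They summed to 851, 793 and 757 TPM in GFP and 912, 880 and 844 TPM in POU5F1B, means of 800 ± 47.5 and 879 ± 34.2 TPM (SD, n = 3). Each POU5F1B library was above the GFP library of its number, but POU5F1B replicate 3 was below GFP replicate 1.

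The enzymes that make the acetyl-CoA and the chain itself differed little. ACLY, which splits citrate into acetyl-CoA, was the most abundant member of the group at 236 TPM and was at 497, 485 and 453 CPM in GFP and at 518, 514 and 483 CPM in POU5F1B, a log2 fold change of 0.08 (95% CI -0.14 to 0.30). FASN, fatty acid synthase, was at 252, 206 and 247 CPM in GFP and at 339, 205 and 275 CPM in POU5F1B, a log2 fold change of 0.19 (-0.28 to 0.66) that rested mostly on POU5F1B replicate 1. ACSS2, which makes acetyl-CoA from acetate, had a log2 fold change of 0.17, and -0.12 with replicates 1 and 2. ME1, malic enzyme, which supplies NADPH for synthesis (GRCh37 chr6:83920121-84140770, minus strand), was at 36.4, 36.1 and 42.9 CPM in GFP and at 49.9, 53.8 and 52.9 CPM in POU5F1B. ME1 was higher in all 3 POU5F1B libraries, by a log2 fold change of 0.44 (95% CI 0.13 to 0.75, adjusted p = 0.297).

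SCD, the desaturase that makes oleate (GRCh37 chr10:102106990-102124583, plus strand), had the largest log2 fold change of the fatty acid genes, 0.59 (95% CI 0.08 to 1.09, adjusted p = 0.353). It was at 136, 90.6 and 141 CPM in GFP and at 207, 188 and 150 CPM in POU5F1B. The groups did not overlap, but POU5F1B replicate 3 exceeded GFP replicate 3 by only 0.09 on the log2 scale, and with replicates 1 and 2 the log2 fold change was 0.83. SCD has a near copy, SCDP1, counted at 0 to 5 reads against 1191 to 2639 for SCD.

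The desaturases and elongases of longer chains went different ways. FADS1 was at 267, 225 and 167 CPM in GFP and at 233, 225 and 205 CPM in POU5F1B, a log2 fold change of 0.03 (95% CI -0.40 to 0.46). Its neighbour FADS2 was at 70.6, 65.5 and 27.9 CPM in GFP and at 47.5, 44.7 and 45.3 CPM in POU5F1B: lower in POU5F1B for numbers 1 and 2, where its log2 fold change of -0.57 was past an adjusted p of 0.05, and higher for number 3. These genes share 490 exonic bases on opposite strands. ELOVL6, which elongates palmitate, was at 7.06, 10 and 38.8 CPM in GFP and at 15, 16.2 and 14.4 CPM in POU5F1B. GFP replicate 3 was far above all other libraries, and the log2 fold change of 0.13 (95% CI -1.27 to 1.52) became 0.86 with replicates 1 and 2, past an adjusted p of 0.05, and -0.29 in edgeR. ELOVL5 had a log2 fold change of 0.03. FADS2 and ELOVL6 were picked out here after their values were seen.

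The acyl-CoA synthetases, which activate fatty acids for use, also differed among themselves. ACSL5 was at 38.9, 44.2 and 118 CPM in GFP and at 72.1, 79.1 and 87.9 CPM in POU5F1B, and ACSL1 at 101, 105 and 114 CPM in GFP and at 128, 129 and 98.2 CPM in POU5F1B. Both were higher in POU5F1B for numbers 1 and 2, with log2 fold changes of 0.85 and 0.31 past an adjusted p of 0.05, and lower for number 3. With all 6 libraries the values were 0.44 (95% CI -0.50 to 1.39) and 0.14 (-0.20 to 0.48). ACSL3 had a log2 fold change of -0.25 (95% CI -1.08 to 0.58), and 0.29 with replicates 1 and 2. GFP replicate 3 exceeded the mean of the other GFP libraries by more than 2-fold for 3 members, ELOVL6, ACSL3 and ACSL5, and was more than 2-fold lower for FADS2, and these are the 4 members with the widest intervals of the fatty acid group. Over all tested genes 12.2% were that much higher and 9.68% that much lower in GFP replicate 3.

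Of 75 further lipid genes in 6 lists, 71 were tested and none passed the threshold with all 6 libraries. At an unadjusted p under 0.05, 4 were higher in POU5F1B, ELOVL7, LPIN1, DGAT2 and PNPLA2 (5.63%, against 6.07% of all tested genes), and 1, FNTB, was lower (1.41%, against 5.82%). Neither share was above that of all tested genes. The triglyceride and lipid droplet list held 3 of these 4, out of 9 tested, and its median was 0.19 on the log2 scale with all 6 libraries and -0.02 with replicates 1 and 2 only, where 4 of the 9 were higher. LPIN1, a phosphatidate phosphatase, was at 35.2, 37.3 and 31.1 CPM in GFP and at 53.2, 53.9 and 47.1 CPM in POU5F1B, a log2 fold change of 0.57 (95% CI 0.24 to 0.89, adjusted p = 0.236) with differences of 0.59, 0.53 and 0.59 in numbers 1, 2 and 3. DGAT2, which adds the last acyl chain of triglycerides, had a log2 fold change of 0.67 (0.08 to 1.27, adjusted p = 0.363). LPIN1 and DGAT2 did not overlap between groups.

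Of 20 further genes of fatty acid synthesis and elongation, 17 were tested, with a median of 0.18 on the log2 scale. Of these, 13 were higher in POU5F1B (76.5%, against 46.9% of all tested genes). ELOVL7, an elongase of long chains, was at 5.38, 5.63 and 9.02 CPM in GFP and at 15.2, 15.6 and 8.8 CPM in POU5F1B. It was higher in POU5F1B for numbers 1 and 2 and nearly equal for number 3, with a log2 fold change of 0.98 (95% CI 0.20 to 1.76, adjusted p = 0.34) and of 1.46 with replicates 1 and 2, where it passed the threshold. ELOVL1 had a log2 fold change of 0.28 (-0.01 to 0.58). The genes of SREBP processing, 9 tested, had a median of 0.13 and none was under an unadjusted p of 0.05. ERLIN1, which takes part in the degradation of ER proteins controlled by sterols, had a log2 fold change of 0.16 (95% CI -0.09 to 0.41) and was higher in all 3 POU5F1B libraries than in any GFP library. Sterol export, storage and LXR genes, 9 tested of 10, had a median of 0.02, again with none under an unadjusted p of 0.05. NR1H2, the sterol sensor LXR-beta, was lower by a log2 fold change of -0.41 (95% CI -0.89 to 0.06) and LPCAT3, a phospholipid remodelling enzyme and LXR target, was at 0.20 (-0.12 to 0.52).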

How the data were processed

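RNA was sequenced from SW480 cells after poly(A) selection with a stranded kit, in 3 GFP and 3 POU5F1B libraries, with group and replicate number taken from the titles. Per the paper's methods and the labels, the authors aligned reads to hg19 with HISAT2, counted uniquely mapped reads with featureCounts over genes and transposable elements, and deposited 6 tables of raw read counts per gene. The strand setting and the annotation release are not given in the sources used here. Of the identifiers, 87.4% were matched to a symbol.

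Counts were fitted with limma voom (limma 3.58.1, edgeR 4.0.16, R 4.3.3) after filterByExpr and TMM, with group as the only term, a two-sided moderated test and Benjamini-Hochberg adjustment over all 14286 tested genes. The threshold was an adjusted p under 0.05 with a fold above 2, as in the study's methods. CPM used TMM library sizes, log2 CPM a prior count of 2, and TPM the length of the Ensembl canonical transcript and no TMM scaling. Alternatives were edgeR's quasi-likelihood test, DESeq2 1.42.0, sample quality weights, other scalings and filters, a replicate block, replicates 1 and 2 only, and leaving out each library. The fit was first run on simulated counts whose spread was the same in every library. That run does not show how the fit performs with an outlying library such as GFP replicate 3. Coordinates are GRCh37 for genes and GRCh38.p14 for RefSeq promoters. Near copies were transcripts at least 95% identical over at least 200 bases.

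The members and the other lists were chosen with earlier results of these data known. In each role group values per library are given for the 4 members with the smallest p, the 2 with the highest TPM and SREBF1, SREBF2, INSIG1, SCAP, HMGCS1, SQLE, FASN, SCD and ACLY (the rule also names ACACA, not analysed here), and in each other list the 2 genes with the smallest p are named, of which 1 is not reported here. Intervals of a fold change cover the spread between libraries, and the floor of 3 counts covers counting error only.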

Additional observations from a re-analysis of the deposited data

How the results depend on the processing

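No member passed the threshold with all 6 libraries under any tool, scaling or filter tried, and 1 did, MSMO1, with replicates 1 and 2 only. The 6 members at an unadjusted p under 0.05 became 21 with sample quality weights (all tested genes: from 11.9% to 40.1%) and 24 with replicates 1 and 2 only (40.2%), and 2 to 16 when 1 library was left out: 16 without GFP replicate 3 (29.4%), 3 without GFP replicate 2 (6.95%), 2 without POU5F1B replicate 1 (5.19%) and 3 without POU5F1B replicate 2 (6.75%). The members at an adjusted p under 0.05 numbered 13 higher and 3 lower with quality weights (27.8% of all tested genes), 4 higher and 2 lower without GFP replicate 3 (12.1%), and 1 lower, STARD4, in DESeq2 (2.88%). The median of the sterol control and transport genes was -0.26 and that of the fatty acid genes 0.25 with replicates 1 and 2 only, and the former ran from -0.26 without GFP replicate 3 to 0.11 without GFP replicate 1. The median of the sterol synthesis enzymes stayed between 0.15 and 0.30 under all alternatives.

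Deviations from the group means correlated at 0.242, 0.0883 and 0.165 for numbers 1, 2 and 3. Between different numbers they correlated at -0.277 to 0.25, and not every library correlated best with its own number. With 3 libraries per group these values cannot decide whether the numbers pair the samples. With the replicate block 4 members were at an unadjusted p under 0.05, none passed the threshold, and the medians were 0.22, -0.05 and 0.11.

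Of 592 single-member values under the alternatives, 44 reversed sign, in 13 members, and the cause was not tested. ELOVL6 was -0.29 in edgeR, -0.28 in DESeq2 and -0.07 with the block. INSIG1 was 0.002 in DESeq2, 0.28 with quality weights, 0.03 with upper-quartile scaling, 0.02 with total counts, 8e-05 with at least 10 counts in every sample and 0.30 with replicates 1 and 2 only. With quality weights and with replicates 1 and 2 only, TM7SF2 was -0.03 and -0.12, SC5D 0.13 and 0.17, FADS1 -0.07 and -0.11, ACSL3 0.15 and 0.29, and ACSS2 -0.07 and -0.12. SREBF1 was 0.03 with upper-quartile scaling and 0.01 with total counts, and SREBF2 0.01 with upper-quartile scaling. Leaving out 1 library at a time gave ranges of -0.17 to 0.20 for INSIG1, -0.28 to 0.04 for SCAP, -0.29 to 0.31 for SREBF1, -0.26 to 0.11 for SREBF2, -0.35 to 0.82 for ELOVL6, -0.58 to 0.08 for FADS2, -0.04 to 0.11 for ELOVL5, -0.18 to 0.22 for MVD, -0.13 to 0.24 for TM7SF2, -0.29 to 0.16 for SC5D, -0.16 to 0.18 for FADS1, -0.44 to 0.10 for ACSL3 and -0.09 to 0.35 for ACSS2. In the other 24 members, STARD4, FDFT1, SCD, ME1 and MSMO1 among them, no alternative turned the sign.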

Other observations

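Genes of the isoprenoid branches, which lead from farnesyl diphosphate to dolichol, ubiquinone and prenylated proteins, numbered 11 tested, with a median of -0.01 on the log2 scale and 1 under an unadjusted p of 0.05. That gene was FNTB, the beta subunit of farnesyltransferase, at 15.3, 13.2 and 12.7 CPM in GFP and at 8.64, 9.53 and 10.1 CPM in POU5F1B. All POU5F1B libraries were below all GFP libraries, with a log2 fold change of -0.54 (95% CI -0.97 to -0.11, adjusted p = 0.34). NUS1, a subunit of the enzyme that makes dolichol precursors, had a log2 fold change of -0.18 (-0.57 to 0.21).

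Of 16 fatty acid oxidation genes tested, 7 were higher (43.8%, against 46.9% of all tested genes) and 9 lower in POU5F1B. Their median was -0.04 on the log2 scale, with none under an unadjusted p of 0.05. ACADS, the short-chain acyl-CoA dehydrogenase, had a log2 fold change of 0.30 (95% CI -0.17 to 0.77), and SLC25A20, the carnitine carrier of mitochondria, was at 20, 28.1 and 25.4 CPM in GFP and at 15.7, 17 and 25.5 CPM in POU5F1B, a log2 fold change of -0.36 (-0.93 to 0.21).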
